A study of Mus musculus with 3 samples.

Results

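The cells described here are CD4 T cells in metastasis-bearing mouse brain that carried transcripts of Foxp3, the transcription factor that defines regulatory T cells. They were chosen by a rule that used measured values. A barcode had to hold at least 500 genes, at most 15% mitochondrial and at most 20000 gene UMIs (unique molecular identifiers, each counting 1 captured transcript), and to take at least 70% of its mouse hashtag counts from 1 hashtag. It also had to show at least 2 of the 5 T cell receptor complex genes Cd3d, Cd3e, Cd3g, Trac and Trbc2, at least 1 Foxp3 UMI, a CD4 antibody tag above the CD8a tag, and at most 3 UMIs of the myeloid gene Lyz2. The rule left 121 Foxp3+ cells of 12908 barcodes. They were set against 378 CD4-tagged T cells that met the same rule with Foxp3 at 0 (Foxp3-zero cells) and 496 T cells with the CD8a tag above the CD4 tag and Foxp3 at 0 (CD8 T cells).

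The cells came from female C57Bl/6 mice of 2 to 3 months that carried brain metastases after E0771 mammary carcinoma cells were injected into the carotid artery. Some mice received antibodies against the checkpoint proteins VISTA and PD-L1 every other day from day 3, and others did not. Brain immune cells were enriched on Percoll gradients and profiled by CITE-seq, which reads transcripts and oligonucleotide-tagged antibodies from the same cells, with 35 antibodies and 8 hashed samples in 1 capture. Which hashtag marks which treatment was not known for this work. All 3 classes may therefore hold cells of both treatments, and the effect of the antibodies was not analysed. The labels give the brain hemispheres per biological sample as 1, 2 and 3 for the 3 libraries of these same cells, so the tissue behind each hashtag cannot be stated.

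Regulatory T cells restrain other T cells. Foxp3 works with partners such as Helios (Ikzf2) to keep a programme that includes CTLA-4, which removes costimulatory ligands from antigen-presenting cells, and the high-affinity interleukin-2 receptor chain CD25 (Il2ra), which takes up interleukin-2. Members of the TNF receptor family, OX40 (Tnfrsf4), GITR (Tnfrsf18) and 4-1BB (Tnfrsf9), are costimulatory receptors that activated regulatory T cells in tumours carry at high levels. In mice, regulatory T cells of tissues also release interleukin-10 and amphiregulin.

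The oligonucleotide barcodes of the antibodies that defined these cells or bear on their surface phenotype are shown first, since each tag count below is a count of that sequence. The first pair set the CD4 and CD8 classes, CD25 is the interleukin-2 receptor chain, CD103 the integrin chain encoded by Itgae, CD49d the integrin chain encoded by Itga4, and the others are an activation marker, an ectoenzyme and a checkpoint receptor. Every base belongs to the barcode, so all are in capitals, written 5′ to 3′.
CD4: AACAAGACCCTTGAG
CD8a: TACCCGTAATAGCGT
CD25: ACCATGAGACACAGT
CD103: TTCATTAGCCCGCTG
CD49d: CGCTTGGACGCTTAA
CD44: TGGCTTCAGGTCCTA
CD38: CGTATCCGTCTCCTA
PD-1: GAAAGTCAAAGCACT

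Foxp3 (annotated on the X chromosome, bases 7579676 to 7595243 of GRCm38.p6 in RefSeq) was sparsely captured. Of the 121 cells, 43 held 1 Foxp3 UMI, 23 held 2, 21 held 3, and the highest count was 12. When every cell was thinned to 2000 UMIs, 67 of the 121 (55.4%) still held a Foxp3 UMI. The Foxp3-zero class can therefore hold regulatory T cells whose Foxp3 transcript was missed, and 72 of its 378 cells (19.0%) had UMIs of Ikzf2, Ctla4 and Tnfrsf4 together, against 104 of 121 (86.0%) among Foxp3+ cells. Background was low. A Foxp3 UMI was found in 2 of 498 T cells with the higher CD8a tag (0.402%, exact 95% binomial interval 0.0487 to 1.44%, median 5688.5 UMIs) and in 1 of 1321 barcodes with at least 20 Lyz2 UMIs and no UMI of the T cell receptor complex genes (0.0757%, 0.00192 to 0.421%, median 10138 UMIs). After thinning these counts were 0 of 494, which at a limit of 3 counts allows a share of up to 0.607%, and 0 of 1317, which allows up to 0.228% by the same limit (exact upper bounds 0.744 and 0.28%).

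The marker genes other than Foxp3, which did not choose the cells, went with the label. Ikzf2 was detected in 115 of 121 Foxp3+ cells (95%, 89.5 to 98.2%), against 188 of 378 Foxp3-zero cells (49.7%, 44.6 to 54.9%) and 193 of 496 CD8 T cells (38.9%, 34.6 to 43.4%). Ctla4 was detected in 113 Foxp3+ cells (93.4%, 87.4 to 97.1%), against 206 Foxp3-zero cells (54.5%, 49.3 to 59.6%) and 267 CD8 T cells (53.8%, 49.3 to 58.3%). Tnfrsf4 was detected in 117 Foxp3+ cells (96.7%, 91.8 to 99.1%), against 150 Foxp3-zero cells (39.7%, 34.7 to 44.8%) and 40 of 496 CD8 T cells (8.06%, 5.82 to 10.8%). Thinned to 2000 UMIs, which left out 18 Foxp3-zero and 4 CD8 T cells, the Tnfrsf4 shares were 86.0% of Foxp3+, 33.3% of Foxp3-zero and 2.85% of CD8 T cells. Intervals here and below cover counting error only.

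Cells just inside and just outside the Foxp3 threshold are given as a description. With exactly 1 Foxp3 UMI, the 43 cells together held 1423 CPM (UMIs of the gene per 1000000 gene UMIs of the summed cells) of Tnfrsf4 and 313 CPM of Il2ra. At 3 or more Foxp3 UMIs, the 55 cells held 1941 CPM of Tnfrsf4 and 318 CPM of Il2ra. With Foxp3 at 0, the 378 cells held 547 CPM of Tnfrsf4 and 58.1 CPM of Il2ra.

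Foxp3+ cells made up 24.2% of the 499 CD4-tagged T cells (20.5 to 28.3%). By hashtag sample the share was 47.8% in sample 2 (11 of 23 cells, 26.8 to 69.4%), 27.3% in sample 3 (6 of 22, 10.7 to 50.2%) and 33.3% in sample 4 (1 of 3, 0.84 to 90.6%). It was 22.5% in sample 5 (40 of 178, 16.6 to 29.3%), 34.6% in sample 6 (18 of 52, 22.0 to 49.1%), 22.2% in sample 7 (18 of 81, 13.7 to 32.8%) and 19.3% in sample 8 (27 of 140, 13.1 to 26.8%). Sample 1 held no CD4-tagged T cell. The intervals of samples 2 and 8 touch at 26.8%, and those of the other samples overlap one another. The Foxp3 threshold, the CD4 tag gate, the UMI limit and the immune enrichment can all set these shares. Thinned to 2000 UMIs the share was 21.7% in sample 2 and 13.6, 0, 12.3, 21.6, 17.5 and 9.92% in samples 3 to 8. With a CD4 tag of at least 10 and 3 times the CD8a tag, shares ranged from 24.3% in sample 8 to 57.9% in sample 2. As a share of all barcodes that passed the quality and hashtag limits, Foxp3+ cells ranged from 0.84% in sample 4 to 2.89% in sample 2, among the 7 samples that held any.

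**Figure D1:**
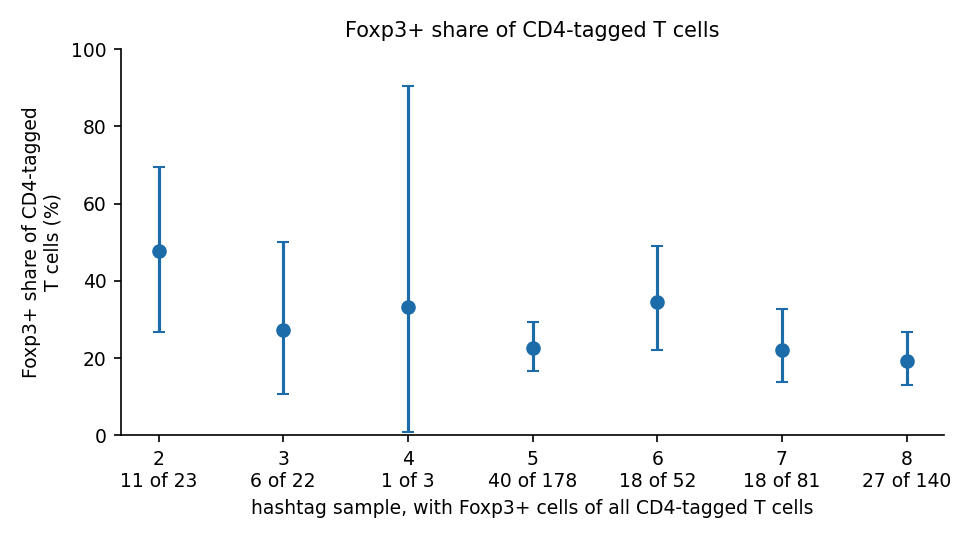
Share of CD4-tagged T cells (%) with at least 1 Foxp3 UMI, by hashtag sample. Points are shares, bars exact 95% binomial intervals, and the counts stand under each sample. Sample 2, at 47.8% of 23 cells, is the highest point, and samples 5, 7 and 8, with the most CD4-tagged T cells, lie between 19.3 and 22.5%.

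Transcript sums were compared between classes within hashtag samples 2, 5, 6, 7 and 8, which held at least 10 cells of both CD4 classes (114 Foxp3+ and 360 Foxp3-zero cells). The sums held 116564 to 246052 UMIs in Foxp3+ cells, 55940 to 723332 in Foxp3-zero cells and 98842 to 1315347 in CD8 T cells. Foxp3+ cells were deeper, with a median of 5826 UMIs and 2073 genes per cell, against 4392 UMIs and 1666 genes in Foxp3-zero cells and 5688 UMIs in CD8 T cells. Of 3023 genes tested outside the rule's own genes, 89 were higher (2.94%) and 153 lower (5.06%) in Foxp3+ cells, at an adjusted p under 0.05 in edgeR's quasi-likelihood test with the hashtag sample as a block. With the Foxp3-zero cells matched on total UMIs, 51 were higher and 61 lower of 2055 tested.

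The classes also differed in what else they held. Of the Foxp3-zero cells, 94 (24.9%) had a CD4 tag under 10 and 56 (14.8%) had a UMI of the gamma-delta T cell receptor genes Trdc, Tcrg-C1 or Tcrg-C2, against 0 and 1 Foxp3+ cells. The summed level of these 3 genes was 0 to 14.3 CPM over the 5 Foxp3+ sums, with Tcrg-C1 and Tcrg-C2 at 0, and 101 to 661 CPM over the Foxp3-zero sums. The 4 natural killer cell genes (Ncr1, Klrb1c, Klre1, Eomes) summed to 0 to 71.3 CPM in Foxp3+ cells and 158 to 250 CPM in Foxp3-zero cells. The comparison with Foxp3-zero cells was therefore also computed with a stricter gate, a CD4 tag of at least 10 and 3 times the CD8a tag (100 Foxp3+ and 260 Foxp3-zero cells, sample 2 falling short of 10 cells). Under it 42 genes were higher and 72 lower of 3222 tested. Leaving out sample 2 alone gave 93 higher and 150 lower. Of the 89 genes higher at first, 89 were tested under the stricter gate, 89 kept their sign and 36 passed again. Of the 153 lower genes, 143 were tested, 140 kept their sign and 58 passed again.

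The genes of a list of regulatory T cell signature genes were higher together. Of 24 list members 16 were tested, 13 were higher and 0 lower, with a median log2 fold change of 1.19 against 0.01 over all genes tested. Nrp1, Traf1 and Cd83 did not pass, at log2 fold changes of -0.18, 0.36 and 0.65. Over all genes tested in this comparison 2.94% were higher and 5.06% lower, the shares to set beside this and the later list counts. This list and those below were drawn up with earlier results of these data known. Their counts describe these cells and are not independent evidence. Under the stricter gate 8 of 16 signature genes passed, all higher.

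Ikzf2, which encodes Helios, stood at 952, 1362, 1080, 912 and 1121 CPM in Foxp3+ cells of samples 2, 5, 6, 7 and 8, against 661, 484, 480, 393 and 486 CPM in Foxp3-zero cells of the same samples. The classes did not overlap. The log2 fold change was 1.10 ± 0.13 (approximate SE derived from the F statistic of the test, n = 5 sample pairs, adjusted p = 7.55e-05). Ctla4, the receptor that competes with CD28 for its ligands, held 1004, 1012, 1056, 1098 and 1022 CPM in Foxp3+ cells, against 501, 326, 453, 472 and 369 CPM in Foxp3-zero cells (log2 fold change 1.27 ± 0.12, adjusted p = 1.86e-05). Ctla4 varied less among the Foxp3+ sums than among the Foxp3-zero sums, as the plot of transcript levels shows. Il2ra, encoding CD25, held 335, 317, 355, 378 and 260 CPM in Foxp3+ cells, against 107, 44.2, 33.1, 39.6 and 82.1 CPM in Foxp3-zero cells (log2 fold change 2.44 ± 0.24, adjusted p = 1.87e-05). The lowest Foxp3+ sum exceeded the highest Foxp3-zero sum in all 3 of these genes. All 3 passed again under the stricter gate, at 1.44, 0.96 and 2.29.

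The TNF receptor genes followed the same order of classes. Tnfrsf4 (OX40) held 2033, 1910, 1924, 1575 and 1817 CPM in Foxp3+ cells, against 733, 423, 690, 764 and 556 CPM in Foxp3-zero cells and 10.8 to 50.6 CPM in CD8 T cells (log2 fold change over Foxp3-zero cells 1.52 ± 0.14, adjusted p = 1.86e-05). Tnfrsf18 (GITR), whose gene lies beside Tnfrsf4 on chromosome 4 (Tnfrsf4 at 156013595 to 156016613, Tnfrsf18 at 156026322 to 156028894, GRCm38.p6), held 1338, 1223, 1451, 1311 and 1005 CPM in Foxp3+ cells, against 822, 433, 442, 438 and 355 CPM in Foxp3-zero cells (1.36 ± 0.13, adjusted p = 1.86e-05). Neither gene's classes overlapped. Tnfrsf9 (4-1BB) held 626, 772, 465, 927 and 453 CPM in Foxp3+ cells, against 518, 177, 99.4, 143 and 208 CPM in Foxp3-zero cells (1.66 ± 0.25, adjusted p = 4.80e-04). Here the classes overlapped, since the Foxp3-zero cells of sample 2 lay above the Foxp3+ cells of samples 6 and 8. Lrrc32, which encodes GARP, the surface anchor of latent TGF-beta, held 112, 89.4, 70.9, 64.1 and 65.9 CPM in Foxp3+ cells, against 35.8, 11.1, 11, 9.13 and 21.8 CPM in Foxp3-zero cells (2.24 ± 0.32, adjusted p = 4.19e-04).

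**Figure D2:**
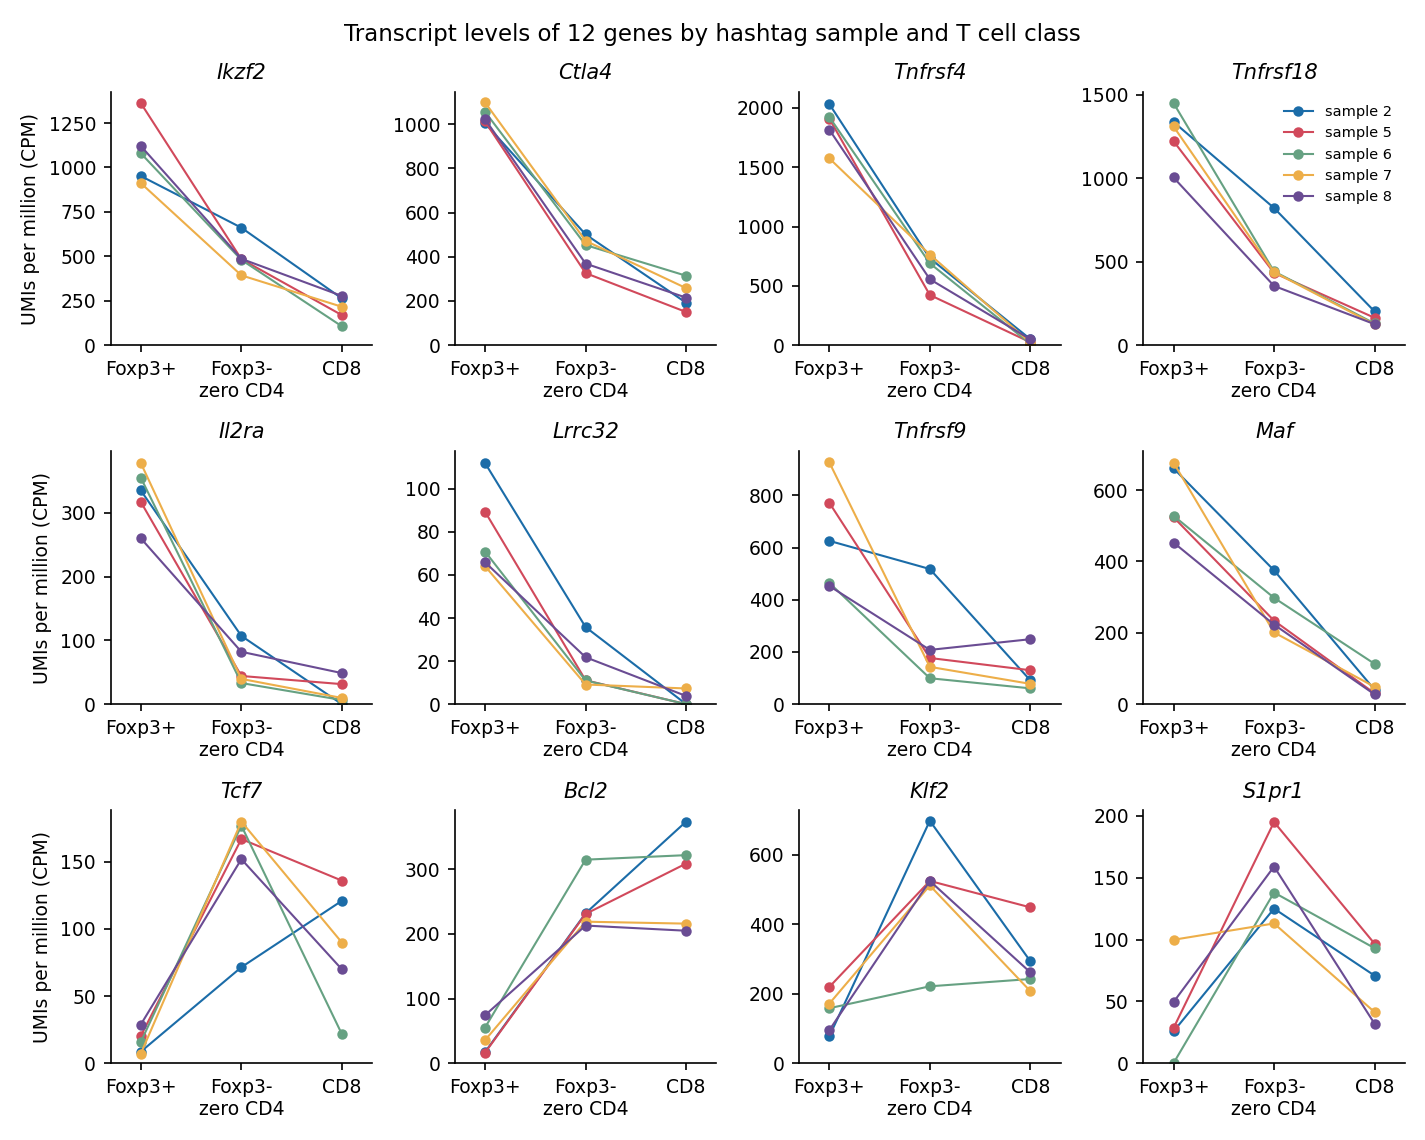
Transcript level (CPM, linear axes from 0) of 12 genes in Foxp3+, Foxp3-zero CD4 and CD8 T cells, with 1 point per hashtag sample and class and lines joining the classes of a sample. In Ikzf2, Ctla4, Tnfrsf4, Tnfrsf18, Il2ra, Lrrc32 and Maf every Foxp3+ point lies above every point of the other classes, and in Tcf7 the Foxp3+ points, at 7.13 to 28.8 CPM, lie below every Foxp3-zero point.

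Other signature genes had smaller or less stable differences. Capg, an actin-capping protein, was higher by 0.96 ± 0.14 (adjusted p = 4.19e-04), and by 0.91 under the stricter gate (adjusted p = 0.00192). Izumo1r, which encodes folate receptor 4, was higher by 1.01 ± 0.19 (adjusted p = 0.00315), but its 0.58 under the stricter gate did not pass (adjusted p = 0.153). Icos, a CD28-family costimulator, was higher by 0.66 ± 0.16 (adjusted p = 0.02), against 0.16 under the stricter gate (adjusted p = 0.626). Samsn1 and Swap70, a signalling adaptor and a cytoskeletal regulator of lymphocytes, were higher by 0.67 and 1.34, and neither passed under the stricter gate (adjusted p = 0.188 and 0.071).

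Of 18 genes of suppressive effector function 15 were tested, 9 were higher and 0 lower, with a median log2 fold change of 1.20. Ctla4, Il10 and Lrrc32 are on the signature list as well. Il10, the suppressive cytokine, held 283, 106, 126, 49.9 and 128 CPM in Foxp3+ cells, against 53.6, 9.68, 149, 9.13 and 28.5 CPM in Foxp3-zero cells. It was higher in 4 of 5 samples and lower in sample 6 (1.71 ± 0.40, adjusted p = 0.0152), and its 1.24 under the stricter gate did not pass (adjusted p = 0.229). Gzmb, encoding granzyme B, held 4024, 996, 662, 1682 and 614 CPM in Foxp3+ cells, against 375, 359, 569, 353 and 616 CPM in Foxp3-zero cells (1.30 ± 0.33, adjusted p = 0.0234). Sample 2 was far above the others, and in sample 8 the classes were level.

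Among the other effectors, Fgl2, a secreted fibrinogen-like protein, was higher by 1.20 ± 0.23 (adjusted p = 0.00467) and Itgav, an integrin chain that activates latent TGF-beta, by 1.26 ± 0.27 (adjusted p = 0.00805), each in 4 of 5 samples. Lag3, an MHC class II-binding inhibitory receptor, was higher by 1.24 ± 0.25 (adjusted p = 0.00605) in 5 of 5. These 3 and Gzmb passed again under the stricter gate. Gzmb did not pass without sample 2, 5 or 7 (0.94, 1.26 and 1.07, adjusted p = 0.0661, 0.0728 and 0.109) or matched on total UMIs (1.26, adjusted p = 0.176). Fgl2 did not pass without sample 8 (0.89), Itgav without sample 5 (0.96), Lag3 without sample 7 (0.97) or Il10 without sample 5 or 8 (1.28 and 1.52). Entpd1, the ectoenzyme CD39, and Lgals1, galectin-1, were higher by 1.05 and 0.60 and did not pass there (adjusted p = 0.215 and 0.0869). Areg, which encodes amphiregulin, held 377, 1301, 181, 549 and 305 CPM in Foxp3+ cells, against 179, 112, 315, 103 and 263 CPM in Foxp3-zero cells. It was higher in 4 of 5 samples, but 1.38 ± 0.45 did not pass (adjusted p = 0.0751). Tgfb1 and Nt5e, the ectoenzyme CD73, had log2 fold changes of -0.03 and 0.20 and did not pass.

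Transcription factors moved in both directions. Of 39 listed 28 were tested, with 3 higher and 6 lower. Maf, which drives interleukin-10 in several T cell types, held 661, 524, 528, 677 and 453 CPM in Foxp3+ cells, against 375, 234, 298, 201 and 223 CPM in Foxp3-zero cells (1.07 ± 0.15, adjusted p = 3.49e-04). Prdm1, which encodes the effector regulator Blimp-1, was higher by 1.11 ± 0.31 (adjusted p = 0.0371), against 0.39 under the stricter gate (adjusted p = 0.636). Tcf7, encoding the naive and memory T cell factor TCF-1, held 8.58, 20.3, 15.8, 7.13 and 28.8 CPM in Foxp3+ cells, against 71.5, 167, 177, 180 and 152 CPM in Foxp3-zero cells (-3.12 ± 0.30, adjusted p = 1.86e-05). Its classes did not overlap, and it was -3.21 under the stricter gate. A Tcf7 UMI was found in 12 of 121 Foxp3+ cells (9.92%, 5.23 to 16.7%), against 158 of 378 Foxp3-zero cells (41.8%, 36.8 to 47.0%). Gata3 and Tbx21, the T helper 2 and T helper 1 factors, were detected in 54 and 17 Foxp3+ cells.

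Genes of naive and memory T cells were lower together. Of 16 listed 12 were tested, 8 were lower and 0 higher, with a median log2 fold change of -1.21, and 7 of 12 were lower under the stricter gate. Over all genes tested 5.06% were lower, with a median of 0.01. Klf2, which maintains quiescence and the expression of egress receptors, held 77.2, 219, 158, 171 and 94.8 CPM in Foxp3+ cells, against 697, 524, 221, 511 and 524 CPM in Foxp3-zero cells (-1.79 ± 0.25, adjusted p = 3.49e-04). S1pr1, the receptor for tissue egress, held 25.7, 28.4, 0, 99.8 and 49.4 CPM in Foxp3+ cells, against 125, 195, 138, 113 and 159 CPM in Foxp3-zero cells (-1.93 ± 0.38, adjusted p = 0.00501). Every Foxp3+ sum of these genes lay below the Foxp3-zero sum of its own sample. Lef1, a partner of TCF-1, was lower by -1.41 ± 0.32, Il7r, the interleukin-7 receptor chain, by -1.01 ± 0.20 and Foxp1 by -0.84 ± 0.23, all below 0.05 with the stricter gate as well. Foxp1 did not pass without sample 5, 6 or 8 (-0.85, -0.64 and -0.85). Neither Foxp1 nor Il7r passed matched on total UMIs. Il7r also did not pass thinned to 2000 UMIs, with at least 5 or 20 cells per class, or with no replicate block. Ccr7, which directs naive cells to lymph nodes, had a log2 fold change of 0.26 and did not pass.

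Bcl2, the survival protein maintained by interleukin-7, held 17.2, 16.3, 55.2, 35.6 and 74.2 CPM in Foxp3+ cells, against 232, 231, 315, 219 and 213 CPM in Foxp3-zero cells (-2.59 ± 0.28, adjusted p = 3.88e-05). The classes were far apart in every sample, though the difference was -1.44 under the stricter gate (adjusted p = 0.0474). Its pro-apoptotic antagonist Bcl2l11 (BIM) was also lower, by -1.74 ± 0.26 (adjusted p = 4.85e-04), against -1.23 under the stricter gate (adjusted p = 0.071). Bcl2a1b and Bcl2a1d, related to Bcl2, had log2 fold changes of 0.05 and -0.33 and did not pass.

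**Figure D3:**
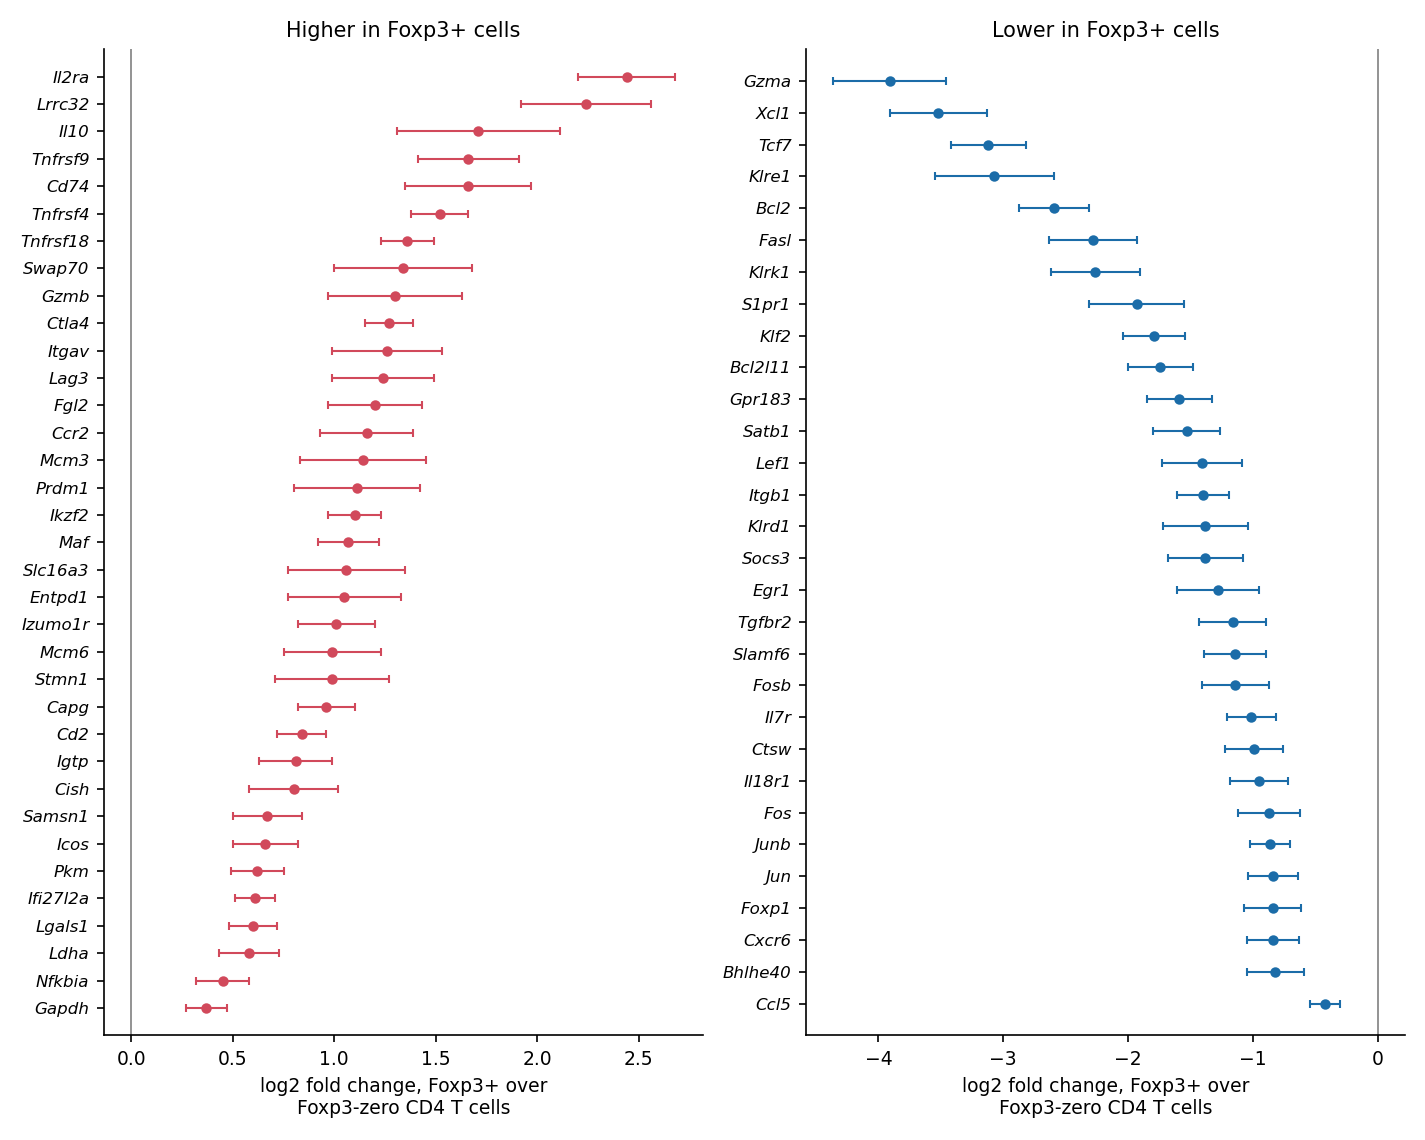
Log2 fold change of Foxp3+ over Foxp3-zero CD4 T cells for 65 listed genes that passed the test and had over 3 UMIs in both classes, 35 higher on the left and 30 lower on the right. Points are fitted values and bars approximate standard errors, derived from the F statistic of the test on 5 hashtag samples. Il2ra and Lrrc32 lead the higher genes at 2.44 and 2.24, and Gzma, Xcl1 and Tcf7 lead the lower genes at -3.91, -3.52 and -3.12.

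Several genes of killing and of natural killer or gamma-delta cells were lower, and some of them were not lower under the stricter gate. Of 14 cytotoxicity genes 11 were tested, with Gzmb higher and 6 lower. Gzma, encoding granzyme A, held 0, 24.4, 15.8, 150 and 12.4 CPM in Foxp3+ cells, against 179, 496, 138, 523 and 1164 CPM in Foxp3-zero cells (-3.91 ± 0.45, adjusted p = 5.53e-05). Sample 7 was the highest Foxp3+ sum and exceeded the Foxp3-zero sum of sample 6. The difference of -2.75 under the stricter gate did not pass (adjusted p = 0.0879). Klrk1, the activating receptor NKG2D, was lower by -2.26 ± 0.36 (adjusted p = 8.65e-04), against -0.16 under the stricter gate (adjusted p = 0.911). Klrd1, Ctsw and Ccl5 were lower by -1.38, -0.99 and -0.42, against -0.06, 0.12 and 0.25 under the stricter gate, so Ctsw and Ccl5 turned direction there and none of the 3 passed. Trdc had 2 UMIs in all Foxp3+ sums and 332 in the Foxp3-zero sums, a ratio of 76.8 in CPM in favour of Foxp3-zero cells with a counting interval of 21.1 to 637. Xcl1, a chemokine of killer cells, was lower by -3.52 ± 0.39 and was too sparse to test under the stricter gate. With Ccl5 it made 2 lower of 5 tested T cell chemokine genes. Fasl, the death ligand, was lower by -2.28 ± 0.35 and passed under the stricter gate, at -2.39 (adjusted p = 0.0105). A further fit left out cells with gamma-delta UMIs or a CD4 tag under 10 (102 Foxp3+ and 259 Foxp3-zero cells kept). There Klrk1 and Klrd1 did not pass, and Ctsw and Ccl5 were at 0.18 and 0.25. Of the 153 lower genes, 145 were tested in it, 141 kept their sign and 53 passed again. It removed both kinds of cell at once, so the part of gamma-delta cells alone was not tested.

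**Figure D4:**
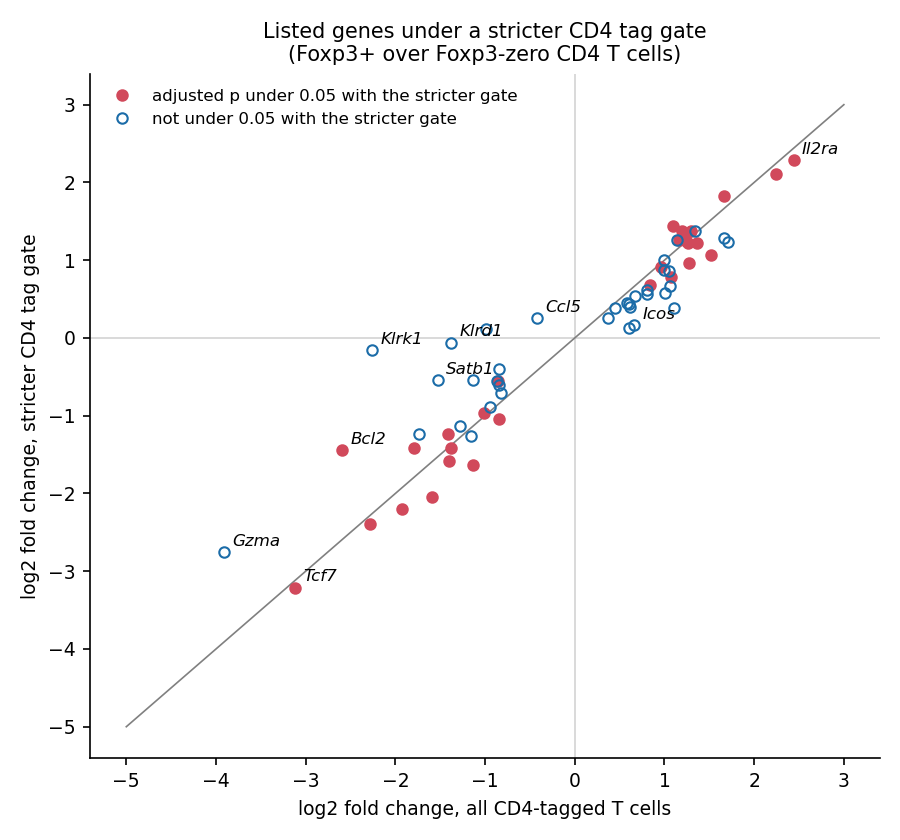
Log2 fold change of Foxp3+ over Foxp3-zero CD4 T cells for listed genes that passed the test, with all CD4-tagged T cells on the horizontal axis and the stricter CD4 tag gate on the vertical axis. Of 65 genes 63 were tested under the stricter gate, where 61 kept their sign and 28 passed (filled). Klrk1 and Klrd1 moved to -0.16 and -0.06, while Il2ra and Tcf7 stayed near the diagonal of equal values.

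Helper cytokine genes were mostly too sparse to test. Only 2 of 19 were tested, and 7 (Il3, Il4, Il5, Il13, Il17f, Il21 and Il22) were at 0 in the Foxp3+ sums. These zeros did not set the class apart. Il3, Il4, Il5 and Il13 had no UMI in any of the 3 classes, and Il22 had none in Foxp3-zero cells. Il17f and Il21 were found in 2 and 4 of 378 Foxp3-zero cells. Tnfsf8, encoding CD30 ligand, had 3 UMIs in the Foxp3+ sums and 165 in the Foxp3-zero sums, a ratio of 25.4 in CPM in favour of Foxp3-zero cells (counting interval 8.56 to 125). Its adjusted p was 6.66e-05, and 8.27e-04 under the stricter gate. An Ifng UMI was found in 16 of 121 Foxp3+ cells (13.2%, 7.75 to 20.6%), against 63 of 378 Foxp3-zero cells (16.7%, 13.1 to 20.8%) and 150 of 496 CD8 T cells (30.2%, 26.2 to 34.5%). Il17a was found in 1 Foxp3+ cell.

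Receptors of cytokines and costimulation were mixed. Of 12 costimulatory receptor genes tested 5 were higher and 1 lower, the 4 named above and the adhesion receptor Cd2, at 0.84 ± 0.12, against Slamf6, a marker of less differentiated T cells, at -1.14 ± 0.25. Cd2 and Slamf6 passed under the stricter gate too. Of 13 tested cytokine receptor and signalling genes, Cish, an interleukin-2-induced inhibitor, was higher with Il2ra, while Il7r, Il18r1, Tgfbr2 and the signalling inhibitor Socs3 were lower, at -1.01, -0.95, -1.16 and -1.38. Cish, Il18r1 and Tgfbr2 did not pass under the stricter gate (adjusted p = 0.182, 0.0572 and 0.0522). Socs3 passed there but not without sample 5 or 8 (adjusted p = 0.0564 and 0.0754), and Slamf6 not without sample 8 (adjusted p = 0.0557). Il2rb, the chain that signals beside CD25, was at 0.16 ± 0.13 and did not pass.

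Receptors for migration and adhesion gave a few differences. Ccr2, the receptor for monocyte-attracting chemokines, held 420, 382, 236, 214 and 342 CPM in Foxp3+ cells, against 161, 74.7, 133, 152 and 181 CPM in Foxp3-zero cells (1.16 ± 0.23, adjusted p = 0.00574). The classes did not overlap in Ccr2. It passed under the stricter gate, at 1.26 (adjusted p = 0.0119), but not with at least 2 Foxp3 UMIs or at least 20 cells per class. The CCR2 antibody tag was at -0.14 ± 0.20 and did not pass (adjusted p = 0.692). That tag was near its floor, with a median of 1 count per Foxp3+ cell and 2 per Foxp3-zero cell. Itgb1, the common beta-1 integrin chain, held 257, 224, 78.8, 285 and 247 CPM in Foxp3+ cells, against 501, 492, 630, 624 and 501 CPM in Foxp3-zero cells (-1.40 ± 0.21, adjusted p = 4.86e-04). Gpr183, an oxysterol receptor that guides lymphocytes, was lower by -1.59 ± 0.26 (adjusted p = 0.00106). Cxcr6, a receptor of tissue-resident T cells, was lower by -0.84 ± 0.21 (adjusted p = 0.0234), against -0.60 under the stricter gate (adjusted p = 0.296). Cxcr3, found in 71 of 121 Foxp3+ cells (58.7%), had a log2 fold change of -0.04 and did not pass. Among genes too sparse to test, Ccr8 was found in 17 Foxp3+ cells (14.0%, 8.4 to 21.5%) and 11 Foxp3-zero cells (2.91%, 1.46 to 5.15%), and Klrg1 in 28 (23.1%, 16.0 to 31.7%) and 14 (3.7%, 2.04 to 6.14%). Thinned to 2000 UMIs, the Klrg1 shares were 13.2% and 1.94%.

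Of 5 tested inhibitory receptor genes Ctla4 and Lag3 were higher and 0 lower. The genes of the treated checkpoints did not pass the test. Vsir, which encodes VISTA, held 103, 52.8, 63.1, 99.8 and 107 CPM in Foxp3+ cells, against 35.8, 82.9, 82.8, 66.9 and 78.7 CPM in Foxp3-zero cells (0.07 ± 0.27, adjusted p = 0.931). Cd274, which encodes PD-L1, had a log2 fold change of -0.41 ± 0.26 (adjusted p = 0.422), and Pdcd1, which encodes PD-1, of -0.11 ± 0.22 (adjusted p = 0.83). All 3 genes overlapped between the classes.

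Immediate early genes, which T cell receptor signals and tissue digestion both induce, were lower for 5 of 17 tested (Egr1, Fos, Fosb, Jun and Junb), with Nfkbia, an NF-kappaB inhibitor, higher and a list median of -0.46. Junb held 1055, 1605, 1348, 1112 and 1240 CPM in Foxp3+ cells, against 3772, 2173, 1574, 2145 and 1940 CPM in Foxp3-zero cells (-0.86 ± 0.16, adjusted p = 0.00389). Junb passed under the stricter gate at -0.55 (adjusted p = 0.0137), and Egr1, Fos, Fosb and Jun did not. Of 11 tested genes of NF-kappaB and TNF receptor signalling Nfkbia alone passed, at 0.45, against 0.39 under the stricter gate (adjusted p = 0.129), and of 5 of mitochondrial and lipid metabolism 0 passed. Of 11 tested genes of glycolysis and hypoxia 4 were higher, with Gapdh, Pkm, Ldha and Slc16a3 at 0.37, 0.62, 0.58 and 1.06. None of the 4 passed under the stricter gate. Of 13 tested cell cycle genes Stmn1, Mcm3 and Mcm6 were higher, at 0.99, 1.14 and 0.99, and none passed under the stricter gate. Mki67 and Top2a, at 0.72 and 0.99, did not pass, and a UMI of either was found in 29 of 121 Foxp3+ cells (24.0%) and 11.4% of Foxp3-zero cells after thinning to equal depth. Of 24 interferon-stimulated genes Ifi27l2a and Igtp were higher, by 0.61 and 0.81, and neither passed under the stricter gate. Ribosomal protein genes, looked at after their values had been seen, were lower for 39 of 85 and higher for 0, with a median of -0.29, and 9 of 85 were lower under the stricter gate.

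Cd74, the MHC class II invariant chain, held 2368, 1049, 158, 1105 and 2221 CPM in Foxp3+ cells, against 286, 462, 110, 91.3 and 1221 CPM in Foxp3-zero cells (1.66 ± 0.31, adjusted p = 0.00343). It did not pass under the stricter gate (1.29, adjusted p = 0.0812), with Lyz2 at 0, matched on total UMIs or with DESeq2. H2-Aa, H2-Ab1 and H2-Eb1 were at 0.93, 0.83 and 0.56 and did not pass, and Foxp3+ cells were lower for H2-Eb1 in samples 5, 6 and 8. The I-A/I-E antibody tag, which reads the same molecule on the surface, averaged 121, 59.0, 59.7, 126 and 36.7 counts per Foxp3+ cell. Foxp3-zero cells averaged 44.2, 144, 64.9, 25.9 and 39.5, so the means had no consistent direction. Single cells reached 1545 counts among Foxp3+ and 12768 among Foxp3-zero cells, so these means can rest on few cells. Medians over all samples were 32 and 21.5 counts. Foxp3+ cells also held more antibody tags in all, at a median of 2490 against 1880. Markers of antigen-presenting cells stood beside this. B cell genes summed to 60.1 to 329 CPM in Foxp3+ cells and 66.3 to 145 CPM in Foxp3-zero cells. Monocyte and macrophage genes summed to 70.9 to 136 and 53.6 to 112 CPM, and dendritic cell genes to 0 to 51.5 and 5.52 to 17.9 CPM. Cd8a and Cd8b1 together reached 378 CPM in Foxp3+ cells of sample 7, whose CD8a tag averaged 14.7 counts per cell against 1.73 to 4.81 in Foxp3+ cells of the other 4 samples. With Lyz2 at 0, which left 4 samples, the median log2 fold change of the MHC class II genes was -0.28, against 0.88 in the main fit. The part of other cells in the result was otherwise not tested.

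Outside the lists, the largest increases shared by all 5 samples were Neb, Bmyc, Arl5a, Glrx, Ddit4, Mt1, Fam46a, Chchd10, Gm2a and Ttc39c. Neb, which encodes the muscle thin-filament protein nebulin, held 129, 69.1, 110, 121 and 57.7 CPM in Foxp3+ cells, against 35.8, 8.29, 22.1, 9.13 and 10.1 CPM in Foxp3-zero cells (2.69 ± 0.32, adjusted p = 7.04e-05). Its classes did not overlap. Arl5a, a small GTPase gene that lies beside Neb on chromosome 2 (Neb at 52136640 to 52338798, Arl5a at 52397949 to 52424874, GRCm38.p6), held 189, 224, 315, 228 and 222 CPM in Foxp3+ cells, against 107, 51.2, 127, 48.7 and 82.1 CPM in Foxp3-zero cells (1.60 ± 0.21, adjusted p = 1.48e-04). Both passed again under the stricter gate, at 2.35 and 1.39. Chchd10 and Ttc39c did not pass there (adjusted p = 0.0658 and 0.133), and the other 6 did. Of those 6, Mt1 did not pass matched on total UMIs, with at least 2 Foxp3 UMIs, with at least 20 cells per class or with a hashtag share of 90%. Nor did Mt1 pass without sample 6 or 8 (1.32 and 1.21, adjusted p = 0.0545 and 0.101). Glrx, a glutaredoxin that reverses protein glutathionylation, and Ddit4, a stress-induced inhibitor of mTORC1, were higher by 1.51 ± 0.19 and 1.5 ± 0.26.

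The largest decreases outside the lists were Klra1, Klra7, Gm2682, Ly6c2, Pdlim1, Ramp3, Jaml, Mfsd6, Ugcg and Pde7a. Klra1, a Ly49 receptor gene of natural killer and some T cells, had no UMI in the Foxp3+ sums and 186 in the Foxp3-zero sums, which makes it at least 28.7-fold lower in Foxp3+ cells at a floor of 3 counts over the group. Members of the Klra family share sequence, so reads may be split between them. Ly6c2, which encodes a Ly6C antigen of memory and effector T cells, was lower by -2.41 ± 0.38 (adjusted p = 8.06e-04), against -1.57 under the stricter gate (adjusted p = 0.0719). Jaml and Ugcg, lower by -2.06 and -1.85, did not pass there either (adjusted p = 0.431 and 0.083). Ramp3, Pdlim1, Gm2682 and Pde7a passed under the stricter gate, and Klra1, Klra7 and Mfsd6 were not tested there.

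On the surface, 29 antibody tags other than CD4 and CD8a had enough counts to test, and 3 were higher (10.3%) and 1 lower (3.45%) in Foxp3+ cells. CD25, the product of Il2ra and the interleukin-2 receptor tag whose sequence is printed above, averaged 37.5, 11.1, 11.6, 14.9 and 20.2 counts per Foxp3+ cell in samples 2, 5, 6, 7 and 8, against 4.33, 2.93, 5.12, 2.24 and 4.71 per Foxp3-zero cell and 1.52 to 2.01 per CD8 T cell. The classes did not overlap. The log2 fold change was 1.96 ± 0.26 (adjusted p = 0.00181), and 1.34 under the stricter gate (adjusted p = 0.0545). The tag followed the transcript within Foxp3+ cells, with a median of 13 CD25 counts in the 80 cells with an Il2ra UMI and 4 in the 41 cells without, and deeper cells hold more of both.

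CD38, an NAD-consuming ectoenzyme, averaged 34.8, 45.3, 50.6, 38.2 and 55.3 counts per Foxp3+ cell, against 12.9, 34.6, 31.9, 24.0 and 29.2 per Foxp3-zero cell (0.57 ± 0.16, adjusted p = 0.0465). The pan-leukocyte tag CD45 was higher by 0.30 ± 0.07 (adjusted p = 0.026) and Ly6C lower by -0.40 ± 0.08 (adjusted p = 0.0195). Over 14 alternative settings CD25 passed in 12, Ly6C in 5, CD45 in 1 and CD38 in 0, and CD45 was at -0.04 under the stricter gate. CD103 averaged 16.6, 17.0, 19.3, 14.1 and 30.7 counts per Foxp3+ cell, against 13.1, 5.14, 11.6, 0.857 and 8.06 per Foxp3-zero cell, and did not pass (1.47 ± 0.49, adjusted p = 0.0694). CD49d, at -0.85 ± 0.26 (adjusted p = 0.0576), CD44, at 0.36 ± 0.11 (adjusted p = 0.0576), and PD-1, at 0.42 ± 0.20 (adjusted p = 0.226), did not pass either. CD103 was uneven among Foxp3+ cells, with a median of 3 counts and an upper quartile of 13, and the 24 cells with an Itgae UMI had a median of 29.5 against 2 in the 97 without.

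**Figure D5:**
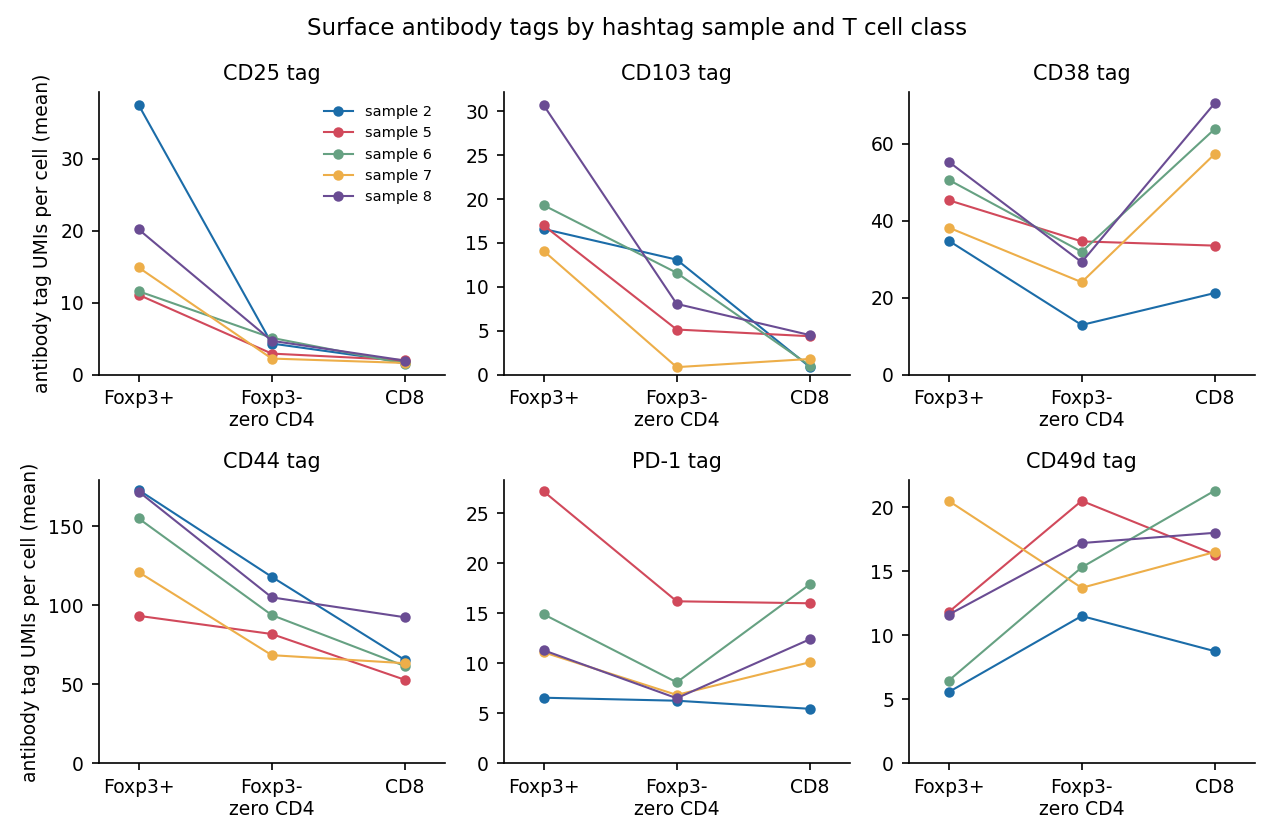
Mean antibody tag counts per cell for 6 tags in Foxp3+, Foxp3-zero CD4 and CD8 T cells, with 1 point per hashtag sample and class and linear axes from 0. CD25 is higher in Foxp3+ cells of all 5 samples, at 11.1 to 37.5 counts, and CD49d is lower in 4 of 5, with sample 7 the exception.

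Against CD8 T cells, 132 of 3272 genes were higher (4.03%) and 116 lower (3.55%) in Foxp3+ cells, in a comparison that uses the same Foxp3+ cells as the one above. Of 15 signature genes tested 13 were higher and 0 lower, with a median log2 fold change of 2.35 against 0.02 over all genes. Tnfrsf4 differed most among them, by 5.88 ± 0.28 (adjusted p = 1.46e-07), followed by Il10 at 4.82 ± 0.57, Lrrc32 at 4.66 ± 0.55 and Izumo1r at 4.22 ± 0.34. Areg was higher here, by 3.34 ± 0.49 (adjusted p = 8.43e-04), at 377, 1301, 181, 549 and 305 CPM in Foxp3+ cells against 10.1, 53.6, 4.33, 36.5 and 144 CPM in CD8 T cells. Of 13 tested cytotoxicity genes 10 were lower and 0 higher. Gzma was lower by -5.11 ± 0.60 and Ccl5 by -1.93 ± 0.30, whereas Gzmb, at 0.15 ± 0.39, and Lag3, at -0.09 ± 0.46, did not pass (adjusted p = 0.901 and 0.96). Bcl2 was lower than in CD8 T cells too, by -2.85 ± 0.36 (adjusted p = 3.19e-04), while Il7r, at 0.41 ± 0.33, did not pass.

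Within the 121 cells, several genes marked only part of the class. Gzmb was found in 77 cells (63.6%, 54.4 to 72.2%), Areg in 55 (45.5%, 36.4 to 54.8%), Il10 in 34 (28.1%, 20.3 to 37.0%), Itgae in 24 (19.8%, 13.1 to 28.1%) and Il1rl1, the interleukin-33 receptor, in 12 (9.92%, 5.23 to 16.7%). Ccr8 and Il10 were found together in 11 cells of the 17 with Ccr8 and the 34 with Il10. Itgae and Ccr8 were found together in 4 cells, of 24 with Itgae and 17 with Ccr8. Il1rl1 was found in 6 of 40 Foxp3+ cells of sample 5, 4 of 27 of sample 8 and 1 of 18 of sample 7, and in none of the 11 of sample 2 or the 18 of sample 6. Areg was found in 21 of 40 cells of sample 5, 12 of 27 of sample 8, 9 of 18 of sample 7, 5 of 18 of sample 6 and 4 of 11 of sample 2. At these cell numbers and this depth, absence of a UMI is not absence of the transcript.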

How the data were processed

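The authors deposited UMI counts in 1 matrix of features by barcodes. The submitters' processing notes name Cell Ranger 3.1, Seurat 3.1.1 and mm10. The matrix holds transcripts, antibody tags and hashtags of the same barcodes. Which gene annotation was used is not stated in those notes. Antibody barcodes come from the deposited antibody reference. The gating rule is given in the report. Doublets were limited by the hashtag share, the UMI limit and the Lyz2 limit, and no doublet caller was run. Free RNA was not measured.

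For each class, the deposited counts of its cells were added up within a hashtag sample (at least 10 cells of both classes) and tested with edgeR 4.0.16 (quasi-likelihood, TMM, filterByExpr, R 4.3.3), with Benjamini-Hochberg adjustment at 0.05 over all genes or tags. The rule's genes (Foxp3, Cd3d, Cd3e, Cd3g, Trac, Trbc2, Lyz2) and tags (CD4, CD8a) were left out, and Cd4, Cd8a and Cd8b1 in the CD8 comparison. The hashtag sample was a block, since both classes come from the same hashed sample. Deviations of the paired sums correlated at 0.0853, 0.111, 0.0848, 0.101 and 0.133. The sources do not say whether hashtags were separate animals, and the p-values cover no more than the variation among these samples. Fold changes are log2 of Foxp3+ over the other class, and levels are CPM of gene UMIs, which compare classes and not genes. Values after ± are approximate standard errors, the absolute log2 fold change divided by the square root of the F statistic. They are not the spread among hashtag samples.

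The members, gene lists and tests were chosen with earlier results of these data known. Named genes are list members and, outside the lists, the 10 largest increases and 10 largest decreases that passed with 1 direction in all 5 samples. Antibody tags may all be named. Some listed genes are not reported here. The test was checked on simulated counts. Intervals for shares are exact (Clopper-Pearson, 95%). Alternatives included DESeq2 1.42.0.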

Additional observations from a re-analysis of the deposited data

Results flagged for a closer look

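Of 118 groups of 5 hashtag samples checked, 12 held 1 value far from the others, and chance alone gives about 1 in 20. In sample 2 the median log2 ratio of Foxp3+ to Foxp3-zero cells was 0.99 over inhibitory receptor genes and -1.42 over T cell receptor signalling and immediate early genes. In Foxp3+ cells, sample 2 stood apart for Glrx (661 CPM), Mt1 (326 CPM) and Pdlim1 (34.3 CPM), and sample 5 for Tgfbr2 (89.4 CPM). Sample 7 stood apart for Gzma (150 CPM), Klre1 (49.9 CPM) and Trdc (14.3 CPM), and sample 8 for Ramp3 (74.2 CPM), Klra7 (16.5 CPM) and Tnfsf8 (12.4 CPM). Over all Foxp3+ cells Klre1, Trdc and Tnfsf8 had 10, 2 and 3 UMIs, so these outliers rest on few molecules. Whether the rate of 1 in 20 holds for counts this low was not checked.

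A Foxp3 UMI was also found in 88 barcodes above the limit of 20000 UMIs, which were not used as members.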

How the results depend on the processing

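With the stricter CD4 tag gate 42 genes were higher and 72 lower, without cells with gamma-delta UMIs or a CD4 tag under 10 they were 37 and 63, with DESeq2 37 and 59, with Lyz2 at 0 54 and 93, with at least 20 cells per class 37 and 57 (2 samples left), and matched on total UMIs 51 and 61. Thinned to 2000 UMIs 89 were lower, and with no filter on low counts 277. Without 1 hashtag sample at a time they ranged from 47 to 93 higher and 78 to 150 lower, lowest without sample 8. With no replicate block 81 were higher and 111 lower. Against CD8 T cells, no filter gave 221 and 362, and leaving out samples gave 57 to 157 and 35 to 111, lowest without sample 5.

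Tags passing as higher numbered 0 with the stricter gate or matched UMIs, and 1 with at least 5 cells, tag totals, a hashtag share of 90% or no replicate block, and 1 to 2 without single samples. Tags passing as lower numbered 0 with at least 20 or 5 cells, matched UMIs, 90%, no block or gamma-delta cells left out, and 0 to 2 without single samples. Foxp3+ shares thinned to 2000 UMIs were 21.7, 13.6, 0, 12.3, 21.6, 17.5 and 9.92% in samples 2 to 8, and with at least 2 Foxp3 UMIs 30.4, 9.09, 33.3, 11.8, 25, 17.3 and 14.3%. With the stricter CD4 tag gate the shares were 57.9, 40.0, 33.3, 26.7, 40.5, 27.9 and 24.3% in the same samples.

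Log2 fold changes that turned sign were Ccl5 (0.25 stricter gate, 0.01 with Foxp3-zero cells lacking Ikzf2 and Il2ra, 0.25 without gamma-delta cells), Ctsw (0.12 and 0.18 with the first and last of these) and the tags CD45 (-0.04 stricter gate) and CD3 (-0.14 stricter gate, -0.03 without gamma-delta cells, and from -0.04 to 0.27 without single samples, lowest without sample 6). The I-A/I-E tag turned to -0.17 (stricter gate), -0.84 and -0.25 (at least 20 and 5 cells), -0.26 (matched UMIs), -0.03 (tag totals), -0.07 (without gamma-delta cells), -0.15 (without sample 2) and -0.45 (without sample 7), with 0.53 the highest without single samples. The cause was not tested. Of 1666 alternative values of 98 genes and tags, 1260 kept direction and side of the threshold, 385 no longer passed, 4 newly passed and 17 turned sign. Cells per sample, down to 11 Foxp3+ cells in sample 2, limit what can be detected.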
